A study of Mus musculus with 2 samples.

Results

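Transcript levels of the angiopoietin-Tie axis and of angiopoietin-like genes were compared between the lungs of mice with and without an endothelial deletion of Foxf1. The set holds 8 genes of the 22072 in the files, taken by gene symbol: the ligand genes Angpt1 and Angpt2, the receptor genes Tek and Tie1, the receptor phosphatase gene Ptprb, and the angiopoietin-like genes Angptl1, Angptl2 and Angptl4. All 8 were found, each as 1 RefSeq transcript, and 7 had a mean FPKM (fragments scaled to transcript length and library total) of 1 or more. Control mice were homozygous for a floxed Foxf1 allele (Foxf1 fl/fl). Knockout mice had these alleles and the transgene Pdgfb-iCreER. It encodes a Cre recombinase that tamoxifen activates, driven by the promoter of Pdgfb, which is active in endothelium. The background strain was given as C57/BL6 for both. RNA from the lungs of several mice was combined into 1 pool per genotype. Each group thus held 1 library, and no difference below has a replicate check. Neither group carried Cre without floxed alleles, so effects of Cre cannot be told apart from those of the deletion. The sources used here do not give the age, sex and number of the mice or the tamoxifen schedule.

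Angiopoietins are secreted ligands of TIE2, the endothelial receptor tyrosine kinase encoded by Tek. Angiopoietin 1 comes mainly from cells around vessels and activates TIE2, which acts through PI3 kinase and AKT and restrains the transcription factor FOXO1. Angiopoietin 2 is made by endothelium, is stored in Weibel-Palade bodies, and acts as a context-dependent antagonist or weak agonist. TIE1 is a related receptor that binds no angiopoietin directly and modulates TIE2, and the phosphatase VE-PTP, encoded by Ptprb, removes phosphate from TIE2 and associates with VE-cadherin. Most angiopoietin-like proteins share the domain layout of the angiopoietins but are not ligands of TIE2.

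The Tie receptor genes lie on one chromosome, and their promoter sequences are shown because these related genes stood on opposite sides of equality in the deposited values. RefSeq promoter sequences (GRCm38.p6) matched 4 of the 8 genes, namely Angptl1, Angptl2, Tek and Tie1. Each sequence below is the 250 bases before the RefSeq start, on the gene's own strand, with matches of 3 searched motifs in capitals. The window of Tek is chr4:94739039-94739288 (plus strand) and that of Tie1 is chr4:118489850-118490099 (minus strand). The RefSeq gene record of Tek, which covers several transcripts, begins at 94739086, inside its window, and that of Angptl2 begins at 33215951, inside the last bases of its window.
Tek: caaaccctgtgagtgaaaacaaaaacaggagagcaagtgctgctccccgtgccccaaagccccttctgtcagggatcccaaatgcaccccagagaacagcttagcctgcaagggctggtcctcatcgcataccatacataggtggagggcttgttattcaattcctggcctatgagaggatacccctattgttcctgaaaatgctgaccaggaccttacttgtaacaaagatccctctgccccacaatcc
Tie1: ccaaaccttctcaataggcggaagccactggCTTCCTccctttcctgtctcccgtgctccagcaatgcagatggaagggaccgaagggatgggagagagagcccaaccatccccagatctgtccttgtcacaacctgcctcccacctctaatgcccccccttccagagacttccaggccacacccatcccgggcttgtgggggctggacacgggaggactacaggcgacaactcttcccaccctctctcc
The motifs were TAAACA, the core of forkhead sites, AGGAAG, bound by ETS factors, and AGATAA, which GATA factors bind, each searched on both strands. The forkhead core was found in none of the 4 windows, and 12.0% of all 32851 RefSeq promoter windows of that length held it. Tie1 held AGGAAG once, read as CTTCCT and starting 219 bases before the start. Angptl2 held it once, starting 110 bases before the end of its window. Of all windows, 29.5% held AGGAAG. The GATA site was in none of the 4 and in 9.99% of all windows. A match describes letters only, and these windows do not cover enhancers.

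The libraries held about 10.4 M reads on transcripts in knockout lungs and 13.2 M in control lungs, as estimated from coverage. Foxf1, listed as Foxf1a, had 15.7 FPKM in knockout lungs and 72.1 in control lungs, 4.59-fold lower (95% counting interval 3.97 to 5.34), in the direction of the labels. Intervals given below are of this kind. They cover counting error only and leave out differences between mice, pools and library preparations. Of the 12929 genes whose mean FPKM was at least 1, 56.8% lay above equality (23.7% with the libraries scaled to the median endothelial marker), with a median log2 ratio of 0.05 on the log2(FPKM + 1) scale (knockout minus control).

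Tek and Ptprb were lower in knockout lungs by similar factors. Tie1 was slightly higher in the deposited values and slightly lower once the libraries were scaled to the median endothelial marker. Angptl4, an inhibitor of lipoprotein lipase, was lower to about the same degree as Tek. Angpt1 was slightly lower, and Angpt2 and Angptl2 differed by less than their counting error. No difference reached 1.5-fold. Counts past a fold, here and below, are taken on the log2(FPKM + 1) scale. On it, 0 of 7 genes were at least 1.5-fold higher, where 9.41% of all genes over the same floor were. At least 1.5-fold lower were 0, where 4.63% of all genes were. With a looser limit on the same scale, 3 of 7 (Tek, Ptprb and Angptl4) had a log2 ratio of -0.32 or lower, against 12.9% of all genes, and 0 had one of 0.32 or higher, against 21.4%. The median log2 ratio of the 7 genes was -0.19, with 5 below equality and 2 above (all 7 below with endothelial marker scaling). Tek, Ptprb and Angptl4 lay just inside 1.5-fold, and the scaling of the libraries decided their side. With the libraries scaled to their median gene ratio, 2 of 7 (Tek and Ptprb) were at least 1.5-fold lower, against 5.62% of all genes over the floor. With upper quartile scaling 3 were, against 5.81%, and with endothelial marker scaling 3 were, against 13.4%.

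**Figure D1:**
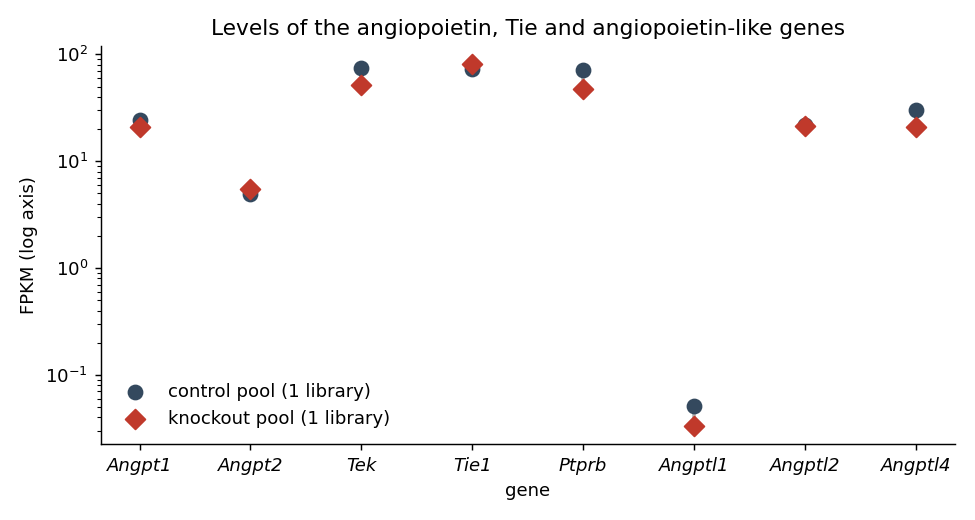
FPKM (log axis) of the 8 genes in control lungs (circles) and knockout lungs (diamonds), 1 library each. Tek, Tie1 and Ptprb sit together between 70.8 and 74.3 FPKM in control lungs and spread from 47.9 to 81.3 in knockout lungs, while Angptl1 lies near 0 in both.

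The receptor gene Tek (chromosome 4, 94405991 to 94541630, mm9) had 74.3 FPKM in control lungs and 51.2 in knockout lungs, from about 5690 and 3032 reads. It was thus 1.45-fold lower (1.39 to 1.52) and ranked 730th from the lowest log2 ratio among 12929 genes. By level it stood 673rd of all genes in control lungs and 1223rd in knockout lungs. A rank within a library does not depend on how the libraries were scaled to each other, and that of Tek was lower in knockout lungs.

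The other Tie receptor gene, Tie1 (chromosome 4, 118143796 to 118162454, mm9), did not share this difference. It had 72.5 FPKM in control lungs and 81.3 in knockout lungs, from about 4627 and 4017 reads, 1.12-fold higher (1.08 to 1.17). By level it stood 703rd of all genes in control lungs and 701st in knockout lungs. Its rank was thus almost the same in both libraries. In control lungs the FPKM of Tie1 was 0.976 times that of Tek, and in knockout lungs it was 1.59 times that of Tek. This proportion, which needs no scaling between libraries, was 1.63-fold higher (1.53 to 1.73) in knockout lungs. There Tie1 was the most abundant of the 8 transcripts per length. In control lungs Tek, at 74.3 FPKM, stood only narrowly above Tie1.

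Ptprb (chromosome 10, 115738430 to 115826594, mm9), whose product dephosphorylates TIE2, had 70.8 FPKM in control lungs and 47.9 in knockout lungs, from about 13878 and 7261 reads. It was 1.48-fold lower (1.44 to 1.52), and its 11912-base transcript gave it the narrowest interval of the set. By level it stood 734th in control lungs and 1300th in knockout lungs, with the 659th lowest log2 ratio. The proportion of phosphatase to receptor transcript differed little. The FPKM of Ptprb was 0.953 times that of Tek in control lungs and 0.936 times in knockout lungs, a change of 0.982-fold (0.932 to 1.04) that was within counting error.

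**Figure D2:**
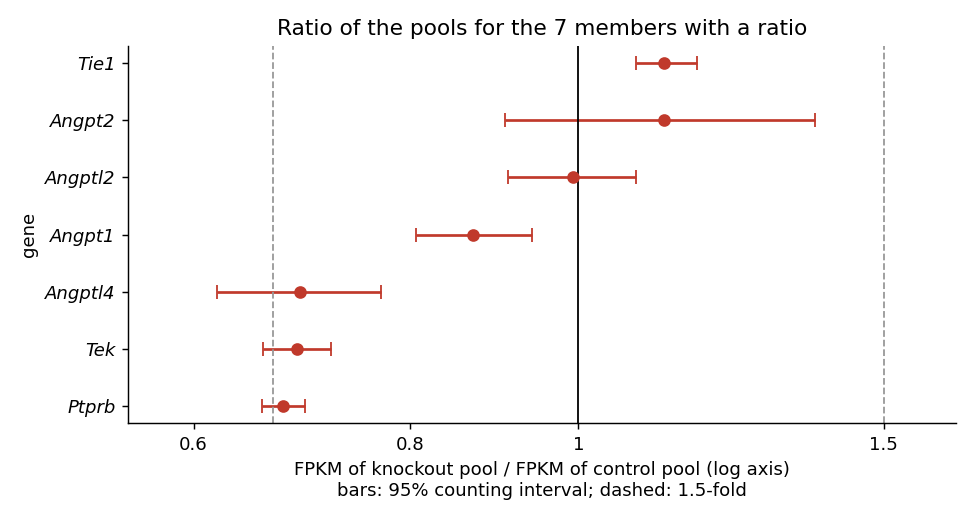
FPKM of knockout lungs over that of control lungs (log axis) for the 7 genes over the floor, with 95% counting intervals as bars and 1.5-fold marked by dashed lines. The intervals of Ptprb, Tek, Angptl4 and Angpt1 lie wholly below 1, that of Tie1 wholly above, and those of Angpt2 and Angptl2 cross 1. Values are as deposited, and Tie1 and Angpt2 turn below 1 with endothelial marker scaling.

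Pan-endothelial markers were read beside these genes, since whole-lung RNA cannot tell fewer endothelial cells from less RNA per cell. All 20 markers were over the floor, so the tissue held endothelial RNA in both pools. Their summed level was 2230 FPKM in control lungs and 2175 in knockout lungs, and their median log2 ratio was 0.32, with 6 at least 1.5-fold higher and 4 at least 1.5-fold lower. They ran from Emcn, which encodes endomucin, at 30.0 FPKM in control lungs and 153 in knockout lungs, to Ramp2, a subunit of the adrenomedullin receptor and the most abundant of them on average, at 423 and 161 FPKM. Tek and Ptprb stood low in this range, with 4 markers below each and 16 above. Those 4, chosen after their values were seen, were Ramp2, Clec14a (92.9 and 43.5 FPKM), Cldn5 (263 and 150 FPKM) and Erg (30.6 and 17.8 FPKM). Tie1 had 9 markers below and 11 above. Taken as a proportion of the summed markers, Tek was 1.42-fold lower (1.35 to 1.48) and Ptprb 1.44-fold lower (1.40 to 1.49) in knockout lungs, whereas Tie1 was 1.15-fold higher (1.10 to 1.20). Scaling the libraries to the median marker in place of the sum lowered all knockout values by 0.33 on the log2 scale. The log2 ratios of Tek and Ptprb were then -0.85 and -0.88, and that of Tie1 turned to -0.16. The part of endothelial cell number in these differences was not tested.

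**Figure D3:**
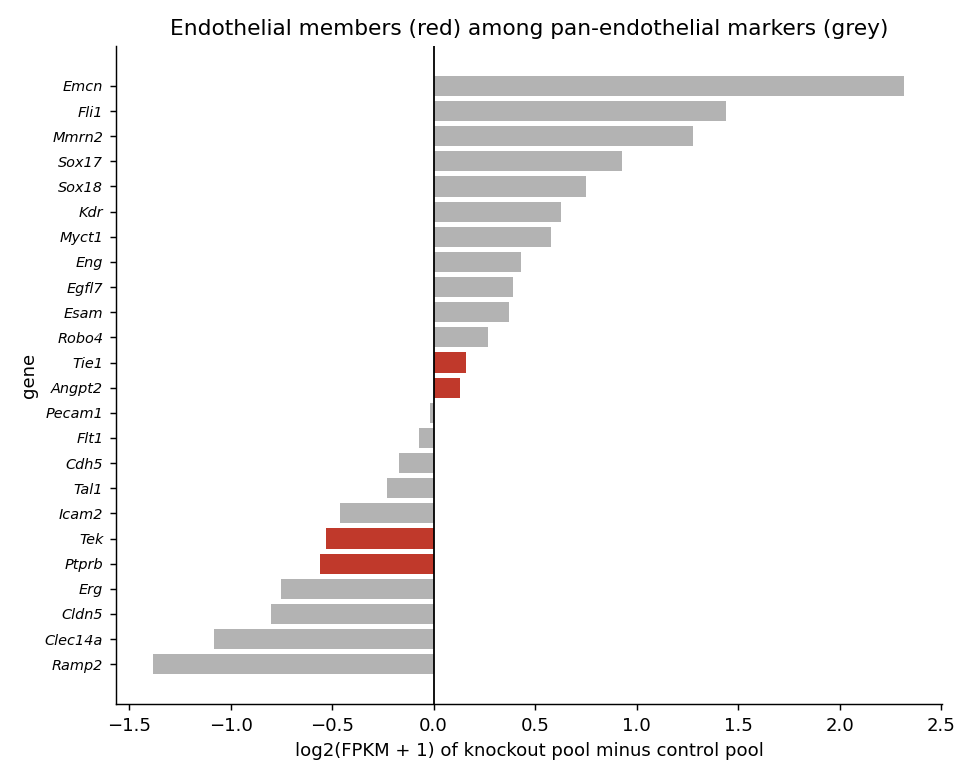
Difference in log2(FPKM + 1), knockout pool minus control pool, of Tek, Ptprb, Tie1 and Angpt2 (red) and of the 20 pan-endothelial markers (grey), sorted. Tek at -0.53 and Ptprb at -0.56 sit between Icam2 and Erg, while Tie1 at 0.16 and Angpt2 at 0.13 lie between Robo4 and Pecam1 in the middle, with log2 ratios of -0.16 and -0.14 under endothelial marker scaling.

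Among the ligands, Angpt1 was the more abundant and Angpt2 the scarcer in both pools. Angpt1 (chromosome 15, 42256271 to 42508341, mm9) had 24.3 FPKM in control lungs and 21.1 in knockout lungs, from about 1629 and 1098 reads, 1.15-fold lower (1.06 to 1.24). That is a smaller difference than those of the receptor Tek and of Ptprb. The FPKM of Angpt1 was 0.327 times that of Tek in control lungs and 0.413 times in knockout lungs, 1.26-fold higher (1.16 to 1.38). Angpt2 (chromosome 8, 18691337 to 18741551, mm9) had 4.96 and 5.54 FPKM, from about 202 and 175 reads. Its difference of 1.12-fold (0.907 to 1.37) was not detectable at this depth, and its log2 ratio turned from 0.13 to -0.14 when libraries were scaled to the median endothelial marker. The proportion of Angpt2 to Angpt1 was 0.204 in control lungs and 0.262 in knockout lungs, 1.28-fold higher (1.03 to 1.60). The lower end of that interval is near equality, and the small read number of Angpt2 sets its width. Angpt2 lies inside Mcph1 on the opposite strand (GENCODE M21), which had 1.05 FPKM in control lungs and 1.62 in knockout lungs. The sources used here do not say whether the counting used strand, so reads of Mcph1 over Angpt2 exons cannot be told apart.

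Angpt1 is known from mesenchymal cells and platelets, and marker lists of these differed in direction. Of 9 pericyte markers, 4 were at least 1.5-fold higher and 0 lower on the log2(FPKM + 1) scale. Their summed level was 232 FPKM in control lungs and 366 in knockout lungs. The range went from Kcnj8 (3.39 and 2.14 FPKM) to Cspg4 (3.15 and 7.39 FPKM), with Postn the most abundant (119 and 192 FPKM). By plain FPKM, Kcnj8 was 1.58-fold lower (1.15 to 2.20). Of 7 smooth muscle markers, 3 were higher and 0 lower (198 and 403 FPKM summed), from Lmod1 (2.20 and 2.24 FPKM) to Tagln, the most abundant (71.2 and 166 FPKM). Of 10 fibroblast markers, 4 were higher and 1 lower (2094 and 2398 FPKM summed), from Inmt, the most abundant (1189 and 626 FPKM), to Col1a1 (43.4 and 113 FPKM). Platelet markers went the other way, with 4 of the 7 over the floor at least 1.5-fold lower and 0 higher (51.3 and 32.6 FPKM summed). They ran from Ppbp, the most abundant (24.9 and 9.09 FPKM), to Pf4 (12.5 and 17.4 FPKM). By plain FPKM, Gp1bb and Treml1, chosen after their values were seen, were also past this fold, 2.19-fold and 1.63-fold lower. Of all genes over the floor, 9.41% were at least 1.5-fold higher and 4.63% lower. With endothelial marker scaling the median log2 ratio went from 0.40 to 0.08 for pericyte markers and from 0.53 to 0.21 for smooth muscle markers. It went from 0.44 to 0.15 for fibroblast and from -0.59 to -0.93 for platelet markers, and Angpt1 went from -0.19 to -0.50. In the deposited values, Angpt1 was thus slightly lower in a pool where summed pericyte, smooth muscle and fibroblast markers were higher and summed platelet markers lower. The part of these cells in the value of Angpt1 was not tested.

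Of the angiopoietin-like genes, Angptl4 (chromosome 17, 33911845 to 33918520, mm9) had 30.2 FPKM in control lungs and 20.8 in knockout lungs, from about 945 and 505 reads. It was 1.45-fold lower (1.30 to 1.62), with the 768th lowest log2 ratio. By level it stood 2103rd of all genes in control lungs and 3337th in knockout lungs, a lower rank as for Tek. Angptl2 (chromosome 2, 33071481 to 33103234, mm9), a secreted protein gene linked to inflammation, had 21.7 and 21.5 FPKM, from about 1228 and 944 reads, a ratio of 0.993 (0.911 to 1.08). A difference beyond 1.10-fold lower or 1.08-fold higher lies outside that interval. Angptl2 lies inside Ralgps1 on the opposite strand, a gene at 1.07 FPKM in control lungs and 0.846 in knockout lungs. Angptl1 (chromosome 1, 158769154 to 158791209, mm9) was at the edge of detection, with about 2 reads (0.0513 FPKM) in control lungs and 1 read (0.0331 FPKM) in knockout lungs. The level of 3 reads is 0.0833 FPKM in the control library and 0.108 in the knockout library, so no fold is given. It also lies inside a gene on the other strand, Ralgps2, at 3.45 and 2.83 FPKM.

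In order of level, control lungs had Tek, Tie1 and Ptprb first, then Angptl4, Angpt1, Angptl2, Angpt2 and Angptl1. In knockout lungs Tie1 led, then Tek and Ptprb, followed by Angptl2, Angpt1, Angptl4, Angpt2 and Angptl1. Angptl4 thus went from the first place of the middle group to its last, where Angptl2 at 21.5, Angpt1 at 21.1 and Angptl4 at 20.8 FPKM stood close together.

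Further angiopoietin family genes were barely expressed. Of Angpt4, Angptl6, Angptl7 and Angptl8, only Angptl8, listed as Gm6484 and matched through RefSeq synonyms, was over the floor. Its product acts with other angiopoietin-like proteins on lipoprotein lipase. It had 1.19 FPKM in control lungs and 2.62 in knockout lungs, from about 17 and 29 reads, 2.20-fold higher (1.17 to 4.26). Angptl7 went the other way at 1.26 and 0.644 FPKM, from about 43 and 17 reads, 1.95-fold lower (1.09 to 3.65). Angpt4 (0.240 and 0.624 FPKM) and Angptl6 (0.526 and 0.631 FPKM) had at most 14 reads in a library, and their intervals crossed 1.

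Genes of TIE2 signalling were centred near equality in the deposited values. Of 21 genes, all over the floor, 1 was at least 1.5-fold higher and 2 were lower, with a median log2 ratio of -0.04. With the libraries scaled to the median endothelial marker that median was -0.33, beside -0.23 for all genes over the floor. The highest was Nos3, which encodes endothelial nitric oxide synthase, at 7.56 FPKM in control lungs and 17.8 in knockout lungs, 2.35-fold higher (2.11 to 2.62). The lowest was the forkhead gene Foxo3, at 14.9 and 9.17 FPKM, 1.62-fold lower (1.42 to 1.85), and Grb7, an adaptor gene chosen after its values were seen, stood at 14.4 and 9.12 FPKM. The most abundant were Mapk3 (133 and 146 FPKM) and Akt1 (61.2 and 72.4 FPKM), kinases downstream of many receptors. Foxo1, the transcription factor restrained by TIE2 signalling and also chosen after its values were seen, had 15.5 and 14.5 FPKM, a ratio of 0.938 (0.864 to 1.02).

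Cell surface and matrix genes listed beside the axis were mostly above equality. Of the 8 genes over the floor (the symbol Pirb matched no record), 3 were at least 1.5-fold higher and 0 lower, and 7 lay above equality. The median log2 ratio was 0.34, and 0.02 with the libraries scaled to the median endothelial marker. Lilrb4, an inhibitory leukocyte receptor gene, was the highest, at 8.68 FPKM in control lungs and 24.0 in knockout lungs, 2.76-fold higher (2.33 to 3.28). Whether its product binds a protein of the axis was not tested. The others past 1.5-fold, chosen after their values were seen, were Svep1, an extracellular matrix protein that binds TIE1, at 6.45 and 13.8 FPKM, and the sheddase gene Adam17, at 15.2 and 25.2 FPKM. Svep1 was 2.14-fold higher (1.99 to 2.30). Cdh5, which encodes VE-cadherin, a partner of VE-PTP, was the lowest and among the most abundant, at 214 and 189 FPKM, and Itgb1, which encodes the integrin beta 1 chain, had 211 and 259 FPKM. The difference of Cdh5, 1.13-fold lower (1.10 to 1.16), was smaller than that of Ptprb. Macrophage markers were higher beside Lilrb4, with 4 of 8 at least 1.5-fold higher and 1 lower (134 FPKM summed in control lungs and 229 in knockout lungs), from Siglec5 (5.35 and 2.76 FPKM) to Marco (3.81 and 15.4 FPKM), with C1qa the most abundant (27.3 and 52.7 FPKM). Of all genes over the floor, 9.41% were at least 1.5-fold higher and 4.63% lower. The part of macrophages in the value of Lilrb4 was not tested.

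Weibel-Palade bodies, the storage granules that hold angiopoietin 2, gave no common direction in the deposited values. Of 10 genes of their contents and machinery, 1 was at least 1.5-fold higher and 1 lower, with a median log2 ratio of 0.01. That median was -0.36 with endothelial marker scaling. Vwf, which encodes von Willebrand factor, the main cargo, was the lowest at 65.6 FPKM in control lungs and 42.8 in knockout lungs, 1.53-fold lower (1.48 to 1.59). Plat, the tissue plasminogen activator gene, was the highest at 22.2 and 51.8 FPKM, 2.33-fold higher (2.15 to 2.53). Igfbp7 (474 and 571 FPKM) and Cd63 (135 and 199 FPKM) were the most abundant.

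**Figure D4:**
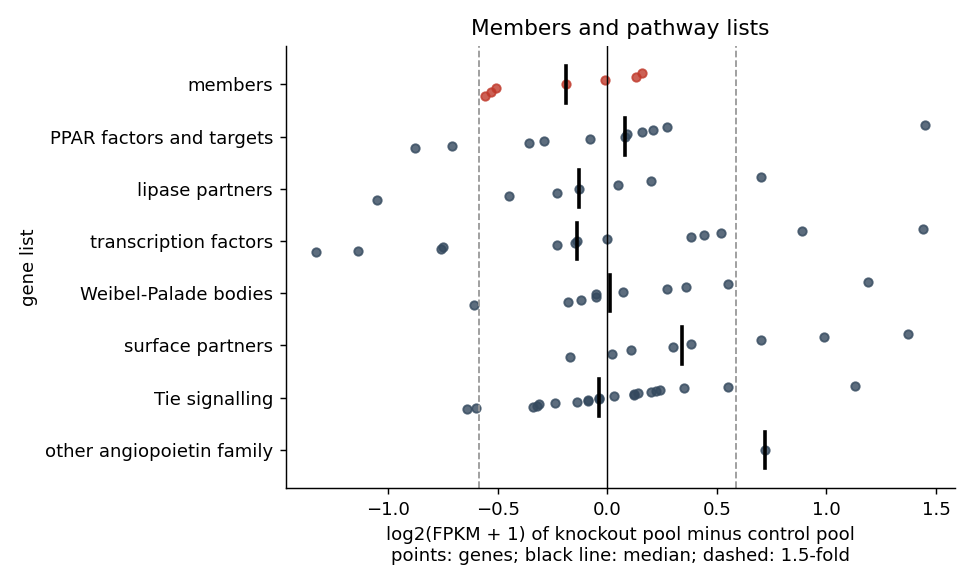
Difference in log2(FPKM + 1), knockout pool minus control pool, of each gene over the floor (mean FPKM of at least 1) in the 7 pathway lists (dark) and of the 7 members over that floor (red), with medians as black lines and 1.5-fold as dashed lines. The members stay inside 1.5-fold, while the transcription factors range from -1.33 to 1.44.

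Transcription factors that act at the genes of TIE2, TIE1 or angiopoietin 2 had the widest range of the 7 lists. Of 13 genes over the floor, 2 were at least 1.5-fold higher and 4 lower, with a median log2 ratio of -0.14 (-0.45 with endothelial marker scaling). Gata3 was the lowest, at 3.74 FPKM in control lungs and 0.892 in knockout lungs, 4.20-fold lower (2.94 to 6.13). Epas1, which encodes the hypoxia-inducible factor HIF-2 alpha and was the most abundant, had 521 and 236 FPKM, 2.21-fold lower (2.17 to 2.25). The others that were lower, chosen after their values were seen, were Gata2 (42.3 and 24.5 FPKM) and the ETS factor gene Erg, given above. The ETS factor gene Fli1 was the highest, at 7.60 and 22.3 FPKM, 2.94-fold higher (2.60 to 3.32), so that these related factors stood on opposite sides. Mef2c, chosen after its values were seen, had 4.66 and 9.51 FPKM, and Klf2, the other most abundant gene, had 76.0 and 109 FPKM.

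Around Angptl4, the lipase genes over the floor, Lpl and Lipg, stayed close to equality in the deposited values. Genes of lipid uptake at the vessel wall differed in opposite directions. Of the 7 lipase partner genes over the floor, 1 was at least 1.5-fold higher and 1 lower, with a median log2 ratio of -0.13. That median was 0.05 without the floor and -0.44 with endothelial marker scaling. Gpihbp1, which anchors lipoprotein lipase on capillaries, was the highest, at 114 FPKM in control lungs and 186 in knockout lungs, 1.63-fold higher (1.52 to 1.74). Cd36, a fatty acid transporter gene, was the lowest, at 403 and 194 FPKM, and these were also the most abundant. Lpl, the lipase that the product of Angptl4 inhibits, chosen after its values were seen, had 58.4 and 60.5 FPKM, a ratio of 1.04 (0.989 to 1.09). The lipase genes Lipg and Lipc were also chosen after their values were seen. Lipg had 20.2 and 18.4 FPKM, a ratio of 0.912 (0.836 to 0.994). Lipc was under the floor, with about 4 and 6 reads. The FPKM of Angptl4 was 0.517 times that of Lpl in control lungs and 0.344 times in knockout lungs, and the second proportion was 0.666 of the first (95% counting interval 0.591 to 0.751). This pair was chosen after its values were seen.

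Angptl4 is a known target of PPAR nuclear receptors, and other PPAR genes did not share 1 direction. Of 11 PPAR factors and targets over the floor, 1 was at least 1.5-fold higher and 2 were lower, with a median log2 ratio of 0.08 that was -0.07 when the most abundant transcript of each gene was used alone and -0.24 with endothelial marker scaling. Fabp4, a fatty acid binding protein gene, was the highest, at 3.20 and 10.5 FPKM. The lipid droplet gene Cidec was the lowest, at 6.10 and 2.87 FPKM, 2.13-fold lower (1.58 to 2.89). Plin2 (46.9 and 56.9 FPKM) and Cpt1a (35.2 and 28.6 FPKM) were the most abundant. Angptl4 is also made by adipocytes, whose defining genes Adipoq (0.0466 and 0.121 FPKM) and Plin1 (0.0314 FPKM and listed at 0) were near 0 and whose gene Lep was listed at 0 in both. Of the 6 adipocyte markers 2 were over the floor, Lipe (20.1 and 18.6 FPKM) and Cidec, with 26.8 FPKM summed over the list in control lungs and 22.5 in knockout lungs. Alveolar epithelial markers had 21151 and 18071 FPKM summed, with 0 of 8 past 1.5-fold, from Sftpa1 (1207 and 808 FPKM) to Pdpn (69.6 and 89.2 FPKM), and Sftpc the most abundant (15925 and 13793 FPKM). The part of these cells in Angptl4 was not tested.

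Other states and vessels were read beside these genes, and the lymphatic markers did not share 1 direction. All 8 cell cycle genes were at least 1.5-fold higher in knockout lungs (64.8 and 240 FPKM summed), from Mcm4 (8.35 and 14.2 FPKM) to Ccna2 (2.27 and 31.9 FPKM), with Pcna the most abundant (45.8 and 93.3 FPKM). Of 5 lymphatic markers 3 were over the floor, from Lyve1, the most abundant (194 and 33.0 FPKM), to Flt4 (11.0 and 16.6 FPKM), and Ccl21a was listed at 0 in both. Of these 3, 0 were at least 1.5-fold higher and 1 lower on the log2(FPKM + 1) scale, where Flt4 stood at 0.55. By plain FPKM, Flt4 was 1.51-fold higher (1.39 to 1.64). The median log2 ratio of the 3 was 0.35, and 0.03 with endothelial marker scaling. Prox1, chosen after its values were seen, was under the floor at 0.265 and 0.341 FPKM, from about 18 reads in each library. Its ratio was 1.28 (0.631 to 2.62). Whether these states move the values of Tek, Ptprb or Tie1 was not tested.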

How the data were processed

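RNA of whole lungs was sequenced as 1 pool of knockout mice and 1 pool of control mice, grouped by the genotype in the labels. The authors deposited FPKM per RefSeq transcript and, per the file headers, its coverage, meaning the mean read depth along the transcript. Within a library FPKM was a fixed multiple of coverage, 1.65 for knockout and 1.28 for control. Each file held 28107 records, of which 27778 (knockout) and 27777 (control) had the status OK. The submitters' processing notes name the build mm9 and DESeq. The sources used here do not give the role of DESeq, the aligner or the quantification tool. In 3284 records the length equalled end minus start, and in 0 it equalled that plus 1, so 1 was added to each start. The promoter windows come from another build, GRCm38.p6, and no coordinates were converted.

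FPKM was summed per symbol. The log2 ratio is knockout minus control of log2(FPKM + 1), a scale on which differences of low genes shrink. Folds of single genes are plain FPKM ratios. Counts past a fold and medians use the log2(FPKM + 1) scale and genes whose mean FPKM was at least 1. A low gene can thus pass 1.5-fold as a plain ratio without being counted. Reads were approximated as coverage times length, divided by the bases that 1 read adds. These were 47.7 (knockout) and 47.6 (control), the median between 35 and 70 bases over genes of 1 transcript. Ratios have 95% exact conditional (Clopper-Pearson) intervals and proportions have conditional odds ratio intervals. With 1 library per group there were no p-values. The effect of 12 alternative settings is given in the closing section. Python 3.11.15, NumPy 2.4.6, pandas 2.3.3 and SciPy 1.17.1 were used.

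The genes and lists were chosen with earlier results of these data known. By rule the text names all 8 genes and the targeted gene, further genes of the angiopoietin family, from each pathway list the ends of its range and the 2 most abundant genes over the floor, and from each marker list its ends and its most abundant gene. Genes named outside the rule were chosen after their values were seen, and beside those marked so in the text these are the markers Adipoq, Plin1, Lep, Ccl21a, Icam2, Robo4 and Pecam1. Mcph1, Ralgps1 and Ralgps2 are named because they overlap members. Single genes of the fixed lists that are not named are not reported here. With 2 libraries no likeness of pattern to other genes can be measured.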

Additional observations from a re-analysis of the deposited data

How the results depend on the processing

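The filters and the choice of transcript left the log2 ratios of the 7 genes unchanged, and a pseudocount cannot turn a sign. Only the scalings could do so. Tek, Ptprb, Angptl4, Angpt1 and Angptl2 stayed below equality with every scaling. Tie1 and Angpt2 stayed above it with median ratio scaling, upper quartile scaling and equal FPKM sums. Both turned with scaling to the median pan-endothelial marker (-0.16 and -0.14). Over the 10 alternatives that apply to ratios, log2 ratios ranged from -0.85 to -0.51 for Tek, from -0.88 to -0.54 for Ptprb and from -0.83 to -0.48 for Angptl4. None of the 12 alternatives put a gene of the set at 1.5-fold higher. The number at least 1.5-fold lower, 0 of 7 as reported, was 2 with median ratio scaling, 3 with upper quartile scaling, 3 with pan-endothelial marker scaling and 3 at a log2 threshold of 0.32. The share of all genes over the floor called lower, 4.63% as deposited, was 5.62%, 5.81%, 13.4% and 12.9% under these settings. The share of all genes above equality, 56.8% as deposited, was 49.2% with median ratio scaling, 48.2% with upper quartile scaling, 55.6% with equal FPKM sums and 23.7% with marker scaling. Of the 71 pathway genes over the floor, 10 were higher and 10 lower, where 9.41% of all genes over the floor were higher and 4.63% lower. The higher count was 18 at a log2 threshold of 0.32 and 5 at 2-fold, and the lower count was 6 with a pseudocount of 3, 16 with marker scaling and 3 at 2-fold. For all genes the higher share was 21.4% at 0.32 and 3.75% at 2-fold, and the lower share was 2.87% with the pseudocount of 3, while 162 of 12929 genes were lower at 2-fold. Each scaling multiplies all knockout values by a single factor, so its shifts follow by construction. The factor was 0.796 for marker, 0.954 for median ratio, 0.948 for upper quartile and 0.992 for equal sums scaling. A higher pseudocount shrinks log2 ratios, and another threshold moves the cut. No paired analysis was possible because each group holds 1 library. Depth limits Angptl1 and Angpt2 most.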
